A study of Mus musculus with 31 samples.

Results

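Heat shock and DnaJ chaperone transcripts were followed in the livers of 31 BXD strains. The members were all probes annotated to 1 gene whose symbol marks an HSP70, HSP90, HSP60, HSP10 or small heat shock protein, a DnaJ protein of class A, B or C, or a subunit of the cytosolic chaperonin, together with Calr and Canx. This rule gave 81 genes of 15095 with a probe of their own, measured by 89 of the 21765 probes with a value on every array, and no member was lost to missing values. Of the genes, 74 had 1 probe and 7 had several. The symbols Hspg2, Hspbap1 and Hspbp1 and the pseudogenes Hsp25-ps1 and Hspe1-ps6 met the rule by name only and are kept apart below. Hsp90aa1, Hsp90ab1, Hspa1b and Hsf1 are not analysed here.

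BXD strains (BxD/TyJ in the labels) are recombinant inbred mice descended from the inbred parents C57BL/6J and DBA/2J, each fixed at a locus for the allele of one parent. For each strain, whole-liver RNA pooled from 3 males at 8 weeks of age was hybridised on a single 2-colour glass array against a single pool from 9 C57BL/6J mice. Neither the strains nor the reference had a treatment in the labels. Each value is a log2 ratio, most likely of strain over reference, so that 0 marks equal signal. A strain and its array cannot be told apart, and neither can, in bulk liver, fewer cells of a type and less RNA per cell. The ratios hold no levels, so the liver label was not checked against marker levels.

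Chaperones bind unfolded proteins and keep them from aggregating while they fold. HSP70 proteins do so in cycles of ATP hydrolysis that J proteins (DnaJ) start and nucleotide exchange factors such as HSP110 end, and the cytosolic chaperonin encloses actin, tubulin and other clients in a double ring. In the endoplasmic reticulum (ER) of hepatocytes, which secrete most plasma proteins, the HSP70 Hspa5 (BiP) and the HSP90 Hsp90b1 (GRP94) work beside the lectin chaperones calreticulin (Calr) and calnexin (Canx), which hold glycoproteins. The unfolded protein response induces ER chaperones through ER stress response elements in their promoters, and heat shock factors induce cytosolic and mitochondrial ones through heat shock elements.

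Promoters are shown first for the ER genes that hold an ER stress response element, because 3 of them, Hsp90b1, Canx and Calr, correlated across strains with 1 probe of Hspa5. RefSeq promoters (GRCm38.p6) were available for 67 of the member genes, and the 250 bases before each start were searched on both strands. The ER stress response element, CCAAT and CCACG with 9 bases between them, was in 35 of 27025 genes with a promoter, or 0.130%. Among members it was in 5 of 67 genes, Hspa5, Hsp90b1, Calr, Canx and Dnajc3, which include all 4 ER chaperone genes with a promoter in the table. Matches are in capitals below, each window runs 5′ to 3′ on the strand of its gene, and Hsp90b1 holds 2 matches.
Hspa5 (chr2:34772005-34772063, plus strand): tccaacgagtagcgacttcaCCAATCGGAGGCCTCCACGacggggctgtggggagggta
Hsp90b1 (chr10:86705513-86705676, minus strand): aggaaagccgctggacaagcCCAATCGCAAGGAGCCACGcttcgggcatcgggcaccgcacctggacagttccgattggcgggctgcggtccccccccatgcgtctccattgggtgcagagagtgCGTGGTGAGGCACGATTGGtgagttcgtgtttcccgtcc
Calr (chr8:84847055-84847113, minus strand): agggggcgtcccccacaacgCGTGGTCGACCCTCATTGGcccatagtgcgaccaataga
Canx (chr11:50325780-50325838, minus strand): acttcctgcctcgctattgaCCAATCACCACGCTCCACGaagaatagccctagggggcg
Dnajc3 (chr14:118937807-118937865, plus strand): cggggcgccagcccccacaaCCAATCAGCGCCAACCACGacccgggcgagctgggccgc
The first base of the match lay 65 bases before the start of Hspa5, 162 before that of Calr, 145 before that of Canx and 105 before that of Dnajc3. In Calr and at the second match of Hsp90b1 the element reads in the opposite orientation, so that ATTGG is at the right end of the capitals.

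A heat shock element of 3 units, GAA, TTC and GAA or the reverse, each 2 bases from the next and searched on both strands, was in 3 of 67 member genes (Hspd1, Hspe1 and Dnajb6) and in 139 of 27025 genes with a promoter, or 0.514%. Hspd1 and Hspe1 encode the mitochondrial HSP60 and its HSP10 lid, and the annotated starts of Hspe1, on the plus strand, and Hspd1, on the minus strand, lie 216 bases apart, or 95 for a second Hspd1 start. The element is shown for Hspe1, with 2 overlapping matches in capitals. The shorter 2-unit form, GAANNTTC or TTCNNGAA, which the longer one contains, was in 14 of 67 member genes and in 14.5% of all genes with a promoter, and it is shown for Hsph1 and Dnaja1, whose lowest strain was the same.
Hspe1 (chr1:55088034-55088101, plus strand): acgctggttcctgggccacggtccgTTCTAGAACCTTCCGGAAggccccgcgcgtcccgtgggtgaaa
Hsph1 (chr5:149636342-149636389, minus strand): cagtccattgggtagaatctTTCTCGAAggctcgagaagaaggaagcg
Dnaja1 (chr4:40722324-40722371, plus strand): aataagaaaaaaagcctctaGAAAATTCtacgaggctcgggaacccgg
Like Hsph1 and Dnaja1, Hspa8 (probe 17848), Dnajc19 and Dnajc30 had their lowest value in strain 8. Hspa8, Dnajc19 and Dnajc30 were not among the 14 member genes with the 2-unit form. A match describes these letters only, and binding was not measured.

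Certain features of the arrays touch the members. The arrays of strains 23, 28, 40 and 42 stood apart, with a median correlation to the other arrays of 0.0568 to 0.370 against 0.570 to 0.790 for the other 27, and 58 of 89 members had their lowest or highest value on one of them (69.5% of all probes did). Probes whose identifier is a multiple of 8 had panel means with a median of -0.58, where the median of the remaining probes was 0.04, and 19 of the members sit at such an every 8th place. For these a place-corrected mean is given too, after subtracting on each array the median of all probes at the same place in the cycle of 8. No dye swap was made, and a dye bias of a probe is part of its mean.

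The panel mean, the mean over 31 strains, passed the test against 0 for 66 of 89 members (limma, Benjamini-Hochberg adjusted over all 21765 probes), 29 of them higher and 37 lower than the C57BL/6J reference. Of all probes 75.0% passed, 37.4% higher and 37.6% lower, so the members' share of 74.2% was near the background. At every 8th places 16 of 19 members were lower and 1 was higher, where 84.1% of all such probes were lower and 6.40% higher. At the other places 28 of 70 members were higher and 21 lower, beside 41.5% and 31.5% of all such probes. A mean of -0.5 or lower was seen for 13 members, 12 of them at every 8th places, and Calr was the only member at 0.5 or higher. Of all probes 10.4% were that low, 56.0% at every 8th places and 4.40% at the others, and 4.36% were that high. Below 0 in all 31 strains were 9 members, 7 of them at every 8th places, beside 4.48% of all probes and 17.0% of those at every 8th places. After place correction 31 members were higher and 31 lower, beside 37.0% and 36.9% of all probes. A mean beyond 0.2 was called for 31 members (33.2% of all probes), and without the 4 arrays that stood apart 69 members passed (78.1% of all probes).

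**Figure D1:**
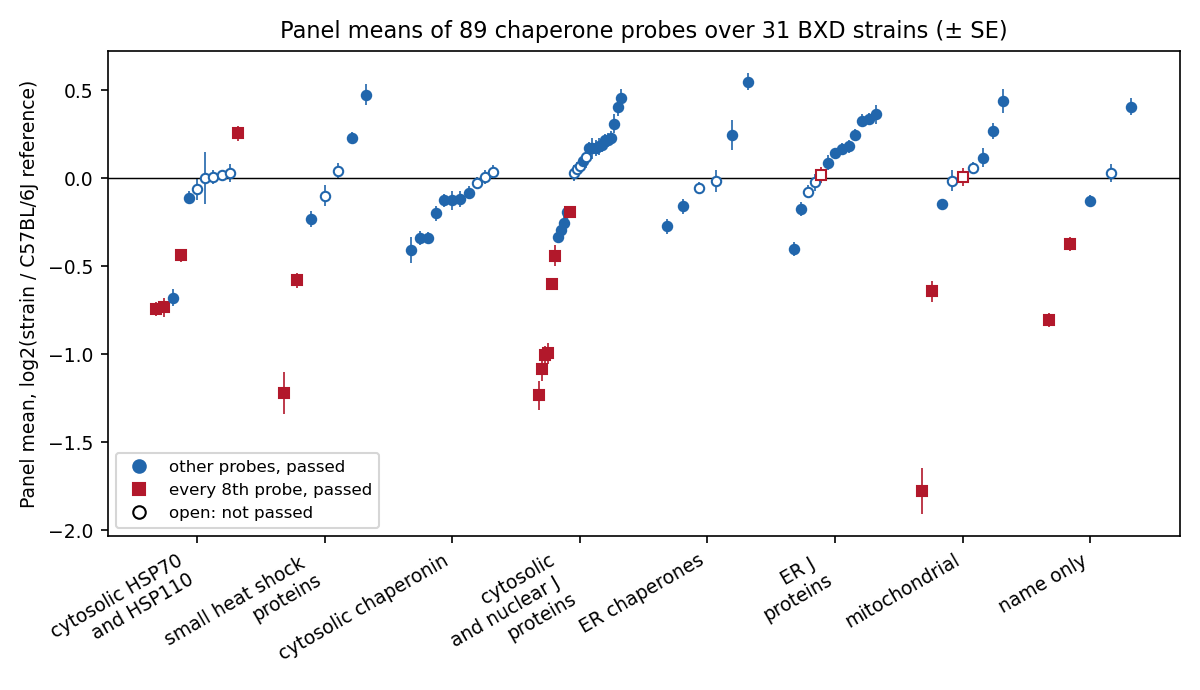
Panel mean of each of the 89 chaperone probes (log2 of strain over C57BL/6J reference, mean ± SE, n = 31 strains), grouped by role, with filled symbols for means that passed the limma test and squares for probes at every 8th place. Of the 13 means at or below -0.5, 12 are squares, Calr is the highest at 0.55, and 8 of 11 chaperonin probes lie below 0 and passed.

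The ER chaperones differed in the direction of their panel means. Calreticulin was higher than the reference in 31 of 31 strains (3.60% of all probes were above 0 in every strain), with a lowest value of 0.13 in strain 24, a median of 0.55 and a highest of 1.07 in strain 2. Its mean of 0.55 ± 0.05 (SE, n = 31), or 1.46-fold, passed with a limma adjusted p of 3.9e-12. Calnexin, the membrane-bound lectin, was lower, at -0.27 ± 0.04 (adjusted p = 1.1e-06), with values between -0.82 in strain 36 and 0.10 in strain 14 and a median of -0.23. Hsp90b1 was also lower, at -0.16 ± 0.04 (adjusted p = 0.001), between -0.73 in strain 36 and 0.17 in strain 31 with a median of -0.10. Of the 6 ER chaperone probes 2 were higher, 2 lower and 2 did not pass.

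The luminal HSP70 Hspa5 had 2 probes, which disagreed. Probe 12185 lay between -0.56 in strain 33 and 0.81 in strain 31, with a median of 0.02 and a mean of -0.02 ± 0.06 that did not pass (limma adjusted p = 0.82). Probe 12397 lay between -0.68 in strain 27 and 1.49 in strain 9, with a median of 0.10 and a mean of 0.25 ± 0.09 that passed (adjusted p = 0.0072). Strain by strain they barely followed each other (r = 0.10, rho = -0.08), and the probe sequences were not used here. The least variable ER chaperone was Hspa13, a microsomal HSP70, with an SD of 0.19 and a mean of -0.05 that did not pass (adjusted p = 0.15). It was lower after place correction, at -0.15 (adjusted p = 0.00029), and without the 4 arrays that stood apart, at -0.08 (adjusted p = 0.04).

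Across strains, Hspa5 probe 12185 correlated with Hsp90b1, Canx and Calr. Of 25 gene pairs listed from known complexes and shared induction, 19 had probes for both genes, which gave 30 probe pairs, and 6 pairs passed a two-sided permutation test of Pearson r over strains (100000 resamples, Benjamini-Hochberg over the 30; 10 had an unadjusted p under 0.05). Hspa5 and Hsp90b1 had r = 0.58 and rho = 0.57 (adjusted permutation p = 0.015 for each), and the values lay on the same side of their medians in 21 of 31 strains. Hspa5 and Canx had r = 0.53 and rho = 0.55 (adjusted permutation p = 0.023 and 0.016), on the same side in 23 of 31 strains. Hspa5 and Calr had r = 0.51 and rho = 0.49 (adjusted permutation p = 0.027 and 0.033), on the same side in 21 of 31 strains.

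At the high end, strain 31 had 0.81 for Hspa5 probe 12185, 0.17 for Hsp90b1, -0.10 for Canx and 0.93 for Calr. At the low end, strain 33 had -0.56 for Hspa5, -0.44 for Hsp90b1, -0.45 for Canx and 0.19 for Calr, and strain 39 had -0.48, -0.59, -0.72 and 0.16 for the same probes in that order. Other strains did not follow this order. Strain 36 had the lowest Hsp90b1 and Canx of the panel beside a Calr of 0.95, and strain 38, second lowest for Hspa5 at -0.53, had a Calr of 0.70. Strain 5, second highest for Hspa5 at 0.44, had -0.13 for Hsp90b1 and -0.25 for Canx, both below their medians, and strain 23, at 0.41 for Hspa5, had -0.59 for Canx. Without the 4 arrays that stood apart, r was 0.62 with Hsp90b1, 0.59 with Canx and 0.50 with Calr, and all 3 passed (adjusted permutation p = 0.0085, 0.0094 and 0.045). Without strains 31 and 33, the farthest from the Hspa5 median, r was 0.51, 0.52 and 0.41, and the pair with Calr no longer passed (adjusted permutation p = 0.16).

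**Figure D2:**
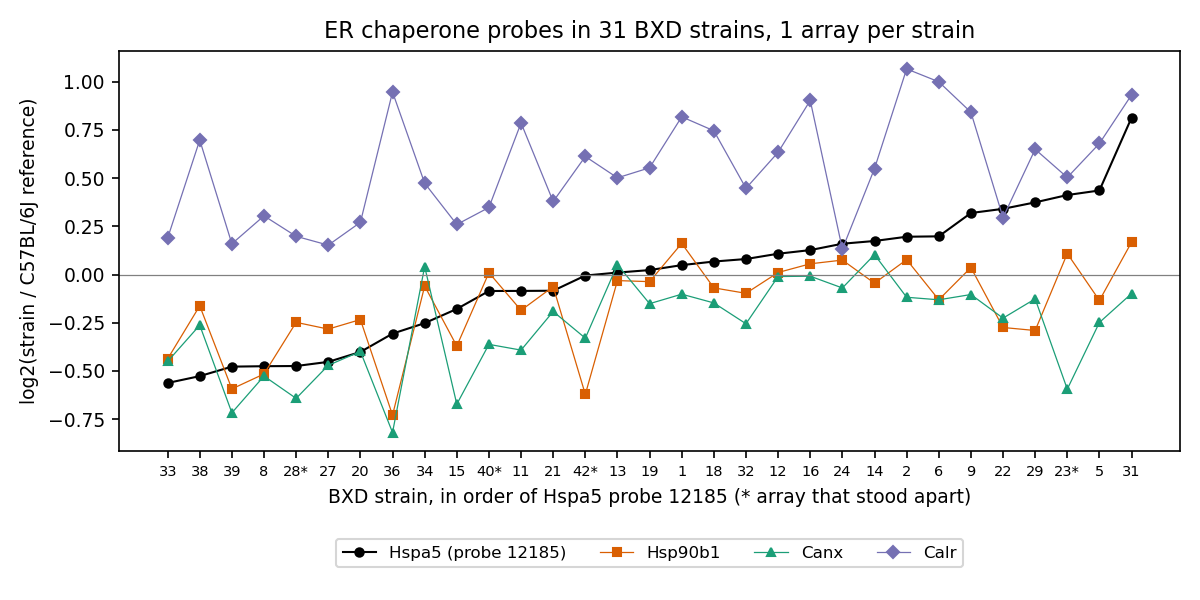
Log2 ratio of strain over C57BL/6J reference for Hspa5 probe 12185, Hsp90b1, Canx and Calr in 31 BXD strains, 1 array each, ordered by Hspa5, with asterisks for the 4 arrays that stood apart. Hspa5 runs between -0.56 in strain 33 and 0.81 in strain 31, the other probes tend to be low at the left and higher at the right, and strain 36 combines a high Calr with the lowest Hsp90b1 and Canx.

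The second Hspa5 probe gave another picture. Probe 12397 had r = -0.03 with Hsp90b1, 0.08 with Canx and 0.22 with Calr, and none passed (adjusted permutation p = 0.91, 0.89 and 0.37). The statement that Hspa5 varies with its partners therefore holds for 1 of its 2 probes. Calr and Canx had r = 0.37 and rho = 0.39 and did not pass (adjusted permutation p = 0.12 and 0.13). Hsp90b1 and Calr had r = 0.31 and rho = 0.36 and did not pass either (adjusted permutation p = 0.19 and 0.15), but r was 0.58 without strains 36 and 42 (adjusted permutation p = 0.016).

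**Figure D3:**
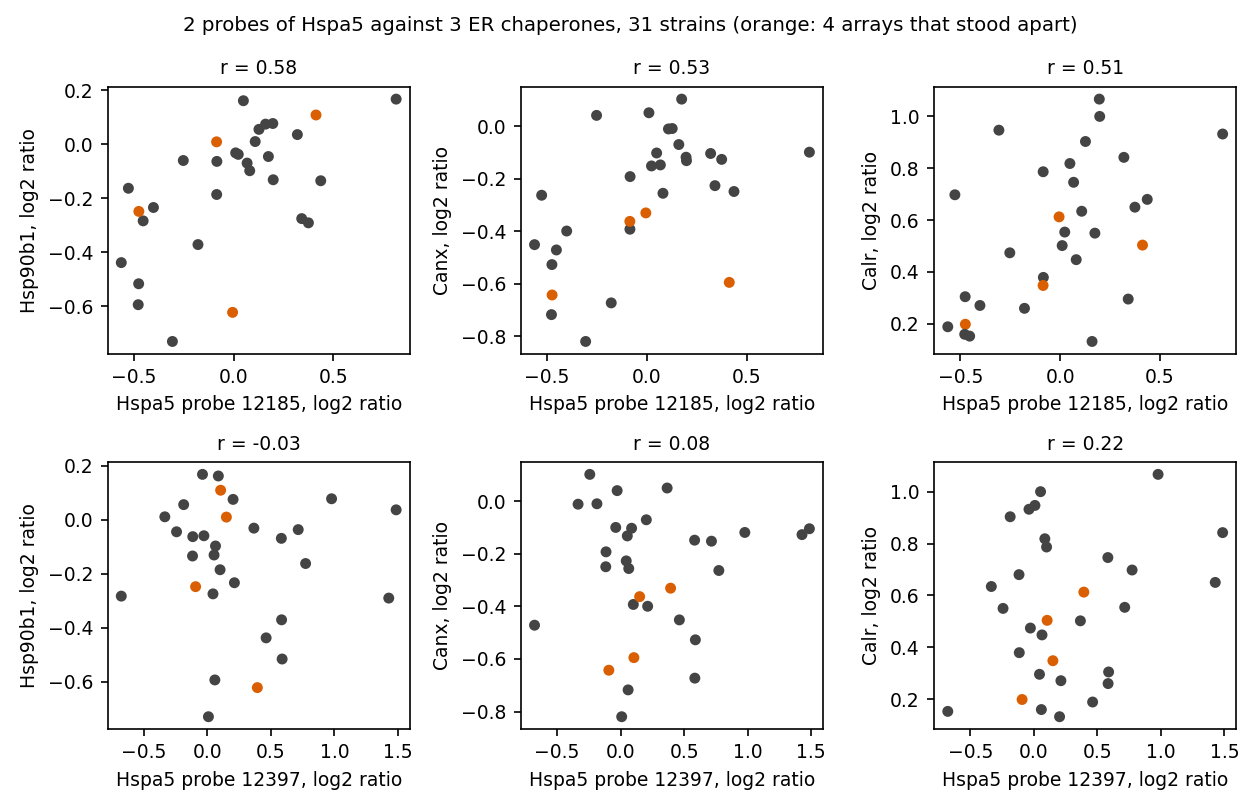
Each panel plots 31 strains by the log2 ratio (strain over C57BL/6J reference) of Hspa5 probe 12185 (top row) or 12397 (bottom row) against Hsp90b1, Canx or Calr, with the 4 arrays that stood apart in orange. Pearson r is 0.58, 0.53 and 0.51 in the top row and -0.03, 0.08 and 0.22 in the bottom row.

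Hsp90b1 and Canx, a pair added after the values had been seen, were the closest of these, with r = 0.69 and rho = 0.68 and values on the same side of their medians in 25 of 31 strains. The adjusted permutation p of this pair was 0.00088 for r and 0.0011 for rho in a family of 22 pairs. The other 21 pairs set Hspa5 probe 12185 against ER stress genes. The adjustment does not cover the choice of the pair after its values were seen, so no conclusion is drawn from these p-values. The coefficient was 0.66 without strains 36 and 42 and 0.86 without the 4 arrays that stood apart. The mean pairwise r of the 6 ER chaperone probes was 0.255, and 0.307 without those 4 arrays, beside 0.0076 over all members and 0.00074 over all probes. With each probe centred on its median, all 6 ER chaperone probes were above their medians in strains 9 and 2 and below them in strains 27 and 39.

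Some J proteins of the ER work in its lumen with Hspa5, and others sit in its membrane with the J domain facing the cytosol. Of their 13 probes 8 were higher, 2 lower and 3 did not pass. Dnajb11 (ERdj3), a soluble client-binding J protein, lay between -0.38 in strain 38 and 1.10 in strain 6 with a median of 0.39, and its mean of 0.36 ± 0.05 was higher (limma adjusted p = 1.2e-07). Dnajc16 was lower, at -0.40 ± 0.04, and below 0 in 30 of 31 strains. The membrane J proteins Dnajc18 and Dnajc22 were each above 0 in 30 of 31 strains, with means of 0.34 and 0.33. Dnajb12, Dnajb14, Dnajc14 and Dnajc25 had small higher means between 0.09 and 0.18. Dnajb14 was 0.05 after place correction and no longer passed (limma adjusted p = 0.22), nor did Dnajb12 without the 4 arrays that stood apart (adjusted p = 0.063).

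Dnajb9 (ERdj4), which represses the stress sensor IRE1, had a mean of -0.07 that did not pass (limma adjusted p = 0.075), but it was lower at -0.14 after place correction (adjusted p = 0.0016) and at -0.09 without the 4 arrays (adjusted p = 0.044). Dnajc10 (ERdj5), a disulfide reductase, had a mean of -0.02 (adjusted p = 0.68) and a range set by strain 40 at -1.28. Dnajc3 (p58IPK), at an every 8th place, had a mean of 0.02 (adjusted p = 0.73) but was higher after place correction, at 0.59 (adjusted p = 4.8e-11). Both probes of Dnajc1 passed in opposite directions, at -0.17 and 0.25. With Hspa5 probe 12185, r was 0.42 for Dnajb11, 0.36 for Dnajb9 and 0.17 for Dnajc3, and none passed (adjusted permutation p = 0.068, 0.14 and 0.54).

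Of the ER stress genes outside the membership, 21 of 22 listed genes had a probe, and none passed against Hspa5 probe 12185 by Pearson r (permutation test, same family of 22). Their median r was 0.157, beside 0.0075 over all probes. Protein disulfide isomerase P4hb had r = 0.45 (adjusted permutation p = 0.10) but rho = 0.62 (adjusted permutation p = 0.0029), and r was 0.76 without the 4 arrays that stood apart. The disulfide isomerases Pdia4 and Pdia3 had r = 0.44 and 0.40, Herpud1, of ER-associated degradation, had 0.38, and none passed. Hyou1, an ER HSP110, had r = -0.28 and Creld2 -0.26, which was -0.46 without the 4 arrays, and neither passed. Over the 23 other probes of genes whose promoter held the ER stress response element, the median r was 0.125, 16 were above 0, and Hsp90b1, Canx and Calr were the only 3 above the 95th percentile of all probes, 0.340. Derl3, at r = -0.48, was the lowest of the 23. The correlations with the listed ER stress genes were added after the values had been seen, which the adjustment does not cover. The other probe of Hspa5 was not set against these ER stress genes.

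Markers of other cells were set against Hspa5 probe 12185 as the mean of each list. Skeletal muscle (Acta1, Ckm, Mylpf and Tnnt3, 4 of 5 listed genes) had r = -0.50 and rho = -0.47 (adjusted permutation p = 0.030 and 0.057 over 7 lists), and r = -0.61 without the 4 arrays that stood apart. Hepatocyte, Kupffer cell, adipose, exocrine pancreas, blood, and endothelial and stellate lists lay between -0.24 and 0.28 and did not pass. These correlations were added after the values had been seen, which the adjustment does not cover, so no conclusion is drawn from their p-values. The other probe of Hspa5 was not set against the marker lists. The part of the muscle markers in the co-variation of the ER chaperones was not tested.

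In the cytosolic HSP70 and HSP110 group 1 of 11 probes was higher, 5 were lower and 5 did not pass. Hspa8, the constitutive HSC70, had 2 probes. Probe 11681 was the most variable member, with an SD of 0.82, above 99.4% of all probes: it was -2.28 in strain 5 and -1.91 in strain 23, had a median of 0.03 and reached 1.26 in strain 22. Its mean of 0.00 ± 0.15 did not pass (limma adjusted p = 0.99). Probe 17848, at an every 8th place, had an SD of 0.20, a median of -0.43 and a mean of -0.44 ± 0.04 that was lower (adjusted p = 9.7e-13) and turned to 0.14 after place correction (adjusted p = 0.0038). Across strains the 2 probes had r = -0.38.

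Hspa1a, the stress-inducible HSP70, was lower at -0.73 ± 0.06, between -1.34 in strain 9 and 0.16 in strain 28 with a median of -0.72, and at -0.16 after place correction (limma adjusted p = 0.031). With place correction and without the 4 arrays it was -0.09 and no longer passed (adjusted p = 0.10). Hspa4l, an HSP110 relative, was lower at -0.74 and at -0.17 after correction. Hspa12a, a distant HSP70, was the only member at -0.5 or lower outside the every 8th places: its mean was -0.68 ± 0.05 (adjusted p = 8.3e-15), its range -1.11 in strain 6 to 0.00 in strain 15, and its median -0.69. Hspa14, which works at the ribosome, was higher at 0.26, or 0.83 after correction. Hspa4, Hspa1l, Hspa2 and Hspa12b had means between -0.06 and 0.03 that did not pass, and Hspa1l, known from testis, was the least variable member (SD 0.12).

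Hsph1 (HSP110), the exchange factor of HSP70, lay between -0.82 in strain 8 and 0.22 in strain 31, with a median of -0.12 and a mean of -0.11 ± 0.04 that was lower (limma adjusted p = 0.0073). Dnaja1, a farnesylated J partner of HSC70 at an every 8th place, lay between -1.28 in strain 8 and 0.09 in strain 33 with a median of -0.40. Its mean was -0.44 ± 0.06, or 0.13 after place correction, which did not pass (adjusted p = 0.089). Hspa8 probe 17848 was also lowest in strain 8, at -1.15. In 5 of 89 members strain 8 was the lowest of the panel, beside 5 for strain 33, 10 for strain 23 and 15 for strain 40. The share of all probes that were lowest in strain 8 was not computed.

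The correlations among these genes depended on strain 8. Hspa8 probe 17848 and Hsph1 had r = 0.53 (adjusted permutation p = 0.032) but rho = 0.24 (adjusted permutation p = 0.38), and r was 0.17 without strain 8. Hsph1 and Dnaja1 had r = 0.48 (adjusted permutation p = 0.032) and rho = 0.32 (adjusted permutation p = 0.22), and r was 0.26 without strain 8. Hspa8 probe 17848 and Dnaja1, both at every 8th places, had r = 0.20 and did not pass (adjusted permutation p = 0.43), and r was 0.54 after place correction (adjusted permutation p = 0.013) and -0.15 without strain 8 before it. Hspa8 probe 11681 had r between 0.03 and 0.05 with Hsph1, Dnaja1 and Dnajb1.

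**Figure D4:**
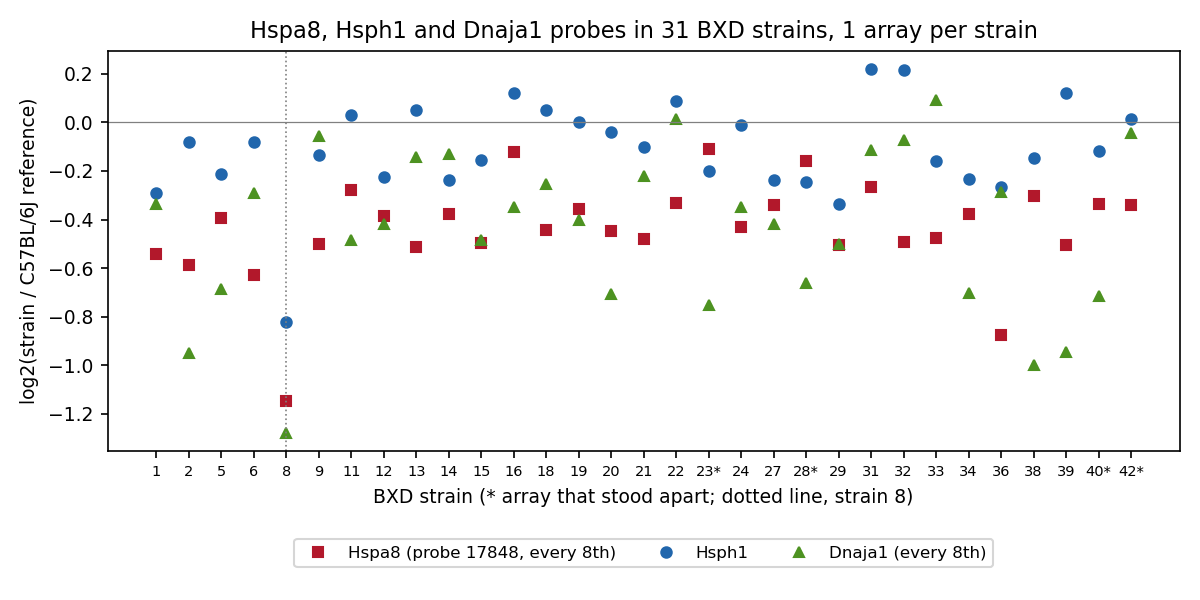
Log2 ratio of strain over C57BL/6J reference for Hspa8 probe 17848, Hsph1 and Dnaja1 in 31 BXD strains, 1 array each, with asterisks for the 4 arrays that stood apart. All 3 probes are lowest in strain 8 (dotted line), at -1.15, -0.82 and -1.28.

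Hspb genes were grouped by symbol as small heat shock proteins, a family known for holding unfolded clients without ATP. Of the 7 probes 2 were higher, 3 lower and 2 did not pass. Hspb1 (HSP25) was higher at 0.47 ± 0.06 (limma adjusted p = 3.4e-09), between -0.21 in strain 42 and 1.03 in strain 21 with a median of 0.52. Hspb11 was higher at 0.23 and above 0 in 30 of 31 strains. Hspb8, a partner of Bag3, was lower at -0.23 ± 0.05. Hspb3, at an every 8th place, was -1.22 ± 0.12, or -0.64 after correction, and ran from -1.82 in strain 32 to 1.43 in strain 24, far above its median of -1.34. Hspb7 was lower at -0.58 but near 0 after correction (adjusted p = 0.89). Hspb2 and Hspb9 did not pass, and Hspb2 was at -1.64 in strain 23, away from a median of -0.03. Hsph1 and Hspb1 had r = 0.14 (adjusted permutation p = 0.66).

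The cytosolic and nuclear J proteins were the largest group, with 27 probes, of which 12 were higher, 11 lower and 4 did not pass. Dnajb1 (HSP40), the J partner of inducible HSP70, was higher at 0.41 ± 0.05 (limma adjusted p = 8.5e-09), between -0.45 in strain 11 and 1.04 in strain 20 with a median of 0.46. Dnajb6, which holds back polyglutamine aggregation, was lower at -0.33 ± 0.03 and below 0 in 31 of 31 strains, as were 2.84% of all probes outside the every 8th places. Dnaja4 was lower at -0.29. Dnajc8, Dnajc21, Dnajb2, Dnajb5, Dnajb8, Dnajb13, Dnaja2, Dnajc12 and Dnajc6 had higher means between 0.17 and 0.31, of which Dnajc6 no longer passed after place correction (adjusted p = 0.061). Dnajc5b was lower at -0.19.

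At every 8th places, Dnajb3 was -1.23 ± 0.08, Dnajc9, a histone co-chaperone, -1.0 ± 0.05, and Dnajc5, the cysteine string protein of secretory vesicles, -0.99 ± 0.06. After place correction these means were -0.66, -0.43 and -0.42, and all 3 remained lower (limma adjusted p at most 1.3e-09). Dnajc24, needed for diphthamide synthesis, was -0.60, or -0.02 after correction, which did not pass (adjusted p = 0.46). Dnajb7 was lower at -0.19 and higher at 0.39 after correction. Dnajc2, a ribosome-associated J protein, had 3 probes at -1.08 (every 8th), -0.25 and 0.46, of which 2 were lower and 1 higher, with r between -0.21 and 0.21. Without the 4 arrays that stood apart, r among the Dnajc2 probes was between 0.21 and 0.46. Both probes of Dnajb4 had small means, 0.05 and 0.10, of which the second passed, though not after place correction (adjusted p = 0.13). Dnajc7, Dnajc17 and Dnajc27 did not pass. Without the 4 arrays Dnajc17 was higher at 0.10 (adjusted p = 0.0095) and Dnajc27 at 0.19 (adjusted p = 0.0025), and Dnajc17 was also higher after place correction, at 0.09 (adjusted p = 0.032).

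Subunits of the cytosolic chaperonin (TRiC), which folds actin and tubulin, were lower in 8 of 11 probes, and none was higher. No chaperonin probe sits at an every 8th place, and 31.5% of all probes at other places were lower. Cct5 was -0.34 ± 0.03 (limma adjusted p = 9.2e-11), between -0.71 in strain 23 and -0.01 in strain 28 with a median of -0.37, and below 0 in 31 of 31 strains. Cct8 was -0.20 ± 0.04, below 0 in 29 of 31 strains, with strain 9 at 0.77. Cct7, Cct2 and Cct3 had means of -0.13, -0.12 and -0.08. Cct6a and the testis subunit Cct6b, at -0.03 and 0.04, did not pass. After place correction 7 of the 11 were lower, Cct3 no longer passing (adjusted p = 0.15). Without the 4 arrays that stood apart 7 were lower, and Cct6b was higher at 0.07 (adjusted p = 0.013).

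Where a chaperonin gene had 2 probes they did not rank the strains alike. Cct4 was lower on both, at -0.34 and -0.12, with r = -0.17, and the second mean was -0.07 without the 4 arrays (limma adjusted p = 0.14). Tcp1, the subunit that names the complex, was -0.41 ± 0.07 on probe 5799, between -1.59 in strain 40 and 0.40 in strain 28 with a median of -0.45, but 0.01 on probe 5669, which did not pass (adjusted p = 0.85), and the probes had r = -0.51. Tcp1 probe 5799 and Cct2, whose identifiers 5799 and 5798 are neighbours, had r = 0.57 and rho = 0.50 (adjusted permutation p = 0.015 and 0.032). Without strains 28 and 40 r was 0.36 and no longer passed (adjusted permutation p = 0.24), and without the 4 arrays it was 0.48 (adjusted permutation p = 0.059). Tcp1 probe 5669 and Cct2 ran the other way, with r = -0.42 (adjusted permutation p = 0.068), rho = -0.48 (adjusted permutation p = 0.033) and r = -0.65 without the 4 arrays (adjusted permutation p = 0.0075).

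None of the other listed chaperonin pairs passed by Pearson r over the 31 strains, and further pairs of subunits were not tested. Cct4 and Cct8 had r = 0.33 and 0.32 on the 2 Cct4 probes (adjusted permutation p = 0.16 and 0.19), Cct3 and Cct5 -0.10 (0.79), and Cct6a and Cct7 -0.26 (0.31). The mean pairwise r over the 11 probes was 0.098, and 0.018 without the 4 arrays.

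Mitochondrial chaperones had 9 probes, 3 higher, 3 lower and 3 not passing. Hspa9 (mortalin), the matrix HSP70 that pulls in precursor proteins, had the lowest mean of all members, -1.78 ± 0.13 (limma adjusted p = 6.3e-15), or -1.20 after place correction (adjusted p = 3.6e-12). It lay at -2.73 in strain 2, at a median of -2.01 and at 0.39 in strain 22, and strains 22 and 40 were the only ones above 0. Hspd1 (HSP60), at an every 8th place, was -0.64 ± 0.06, between -1.37 in strain 32 and -0.16 in strain 27 with a median of -0.58, but -0.07 after correction, which did not pass (adjusted p = 0.26). Its partner Hspe1 (HSP10) was higher at 0.44 ± 0.07 (adjusted p = 1.7e-07), between -0.68 in strain 40 and 1.11 in strain 2 with a median of 0.45.

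Although Hspd1 and Hspe1 are neighbours with a common heat shock element, they had r = 0.05 and rho = 0.23 over the strains and did not pass (adjusted permutation p = 0.91 and 0.38). After place correction r was 0.35 (adjusted permutation p = 0.12). Hspa9 and Hspd1 had r = 0.41, which did not pass (adjusted permutation p = 0.068), and rho = 0.61, which did (adjusted permutation p = 0.009). Without strains 22 and 40, the farthest from the Hspa9 median, r was 0.65 (adjusted permutation p = 0.0051). Both probes sit at every 8th places, and after place correction r was 0.15 (adjusted permutation p = 0.62).

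Among mitochondrial J proteins, Dnaja3, a partner of Hspa9, was lower at -0.15 ± 0.03 (limma adjusted p = 9.5e-05). Dnajc4 was higher at 0.27, and Dnajc15, of the import motor, at 0.12, with Dnajc15 no longer passing after place correction (adjusted p = 0.75) or without the 4 arrays (adjusted p = 0.22). Dnajc19, its relative, had a mean of 0.06 and Dnajc28 one of -0.01, and neither passed, though Dnajc28 was higher without the 4 arrays, at 0.07 (adjusted p = 0.042). Dnajc30, at an every 8th place, had a mean of 0.01 that did not pass, with strain 8 lowest at -1.04. After correction Dnajc30 was higher, at 0.58 (adjusted p = 5.5e-12).

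The spread of the members between strains was close to that of all probes. The median SD over strains was 0.24 for members and 0.24 for all probes, and 5 members lay above the 90th percentile, 0.448 (10.0% of all probes). These were Hspa8 probe 11681, Hspa9 (SD 0.73), Hspb3 (0.66), Hspa5 probe 12397 (0.48) and Dnajb3 (0.47). Hspa9, Hspb3 and Dnajb3 sit at every 8th places, where the median SD of all probes was 0.34, beside 0.23 at other places. After place correction the SD was 0.63 for Hspa9, 0.62 for Hspb3 and 0.32 for Dnajb3. Without the 4 arrays that stood apart the SD was 0.76 for Hspa8 probe 11681, 0.65 for Hspa9, 0.61 for Hspb3 and 0.51 for Hspa5 probe 12397, but 0.15 for Dnajb3, whose high values came from those arrays.

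**Figure D5:**
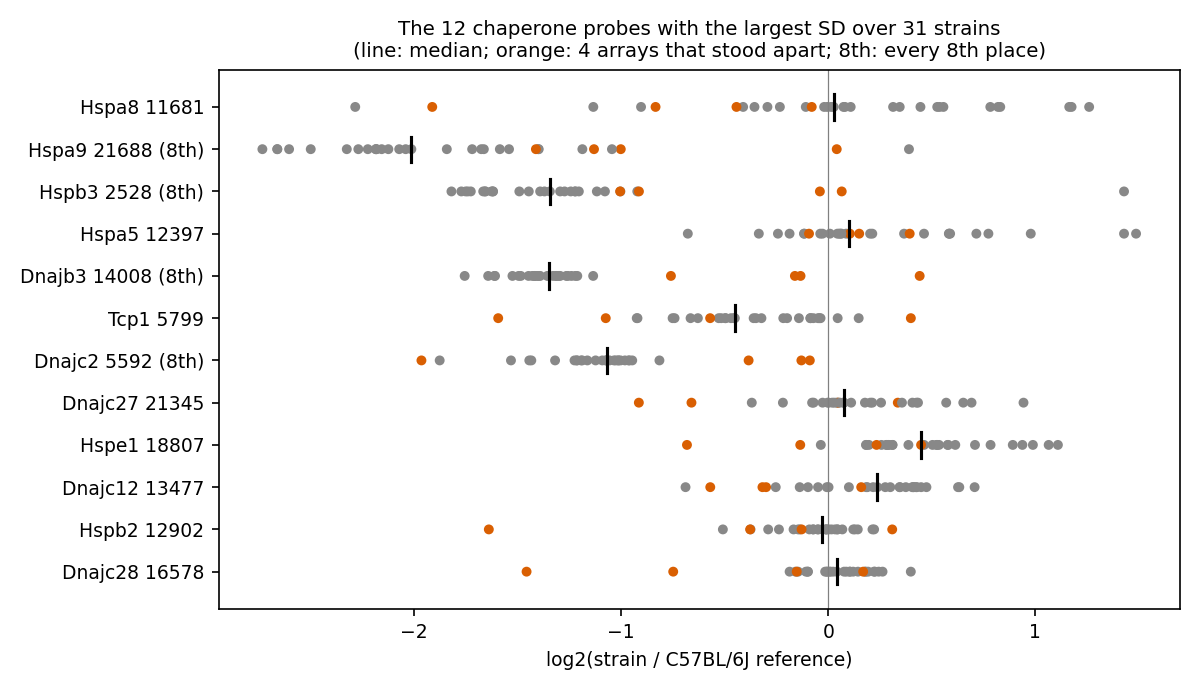
The 12 chaperone probes with the largest SD, each point 1 of 31 strains on the log2 ratio of strain over C57BL/6J reference, with the median as a line and the 4 arrays that stood apart in orange. Hspa8 probe 11681 spreads between -2.28 and 1.26, Hspb3 has 1 strain at 1.43, and the points of Dnajb3 above -0.8 are from the 4 arrays.

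Probes met by name only had 1 higher, 3 lower and 1 not passing. The basement membrane proteoglycan perlecan, Hspg2, was higher at 0.41 ± 0.05 (limma adjusted p = 9.3e-10). Hspbp1, which inhibits HSP70, was -0.37, or 0.20 after place correction. The pseudogenes Hsp25-ps1 and Hspe1-ps6 were lower at -0.81 (every 8th) and -0.13, and may share signal with Hspb1 and Hspe1. Hspbap1 did not pass.

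Partners outside the membership were counted as well. Of 32 probes of co-chaperones and heat shock factor partners 8 were higher and 14 lower, and of 21 ER stress probes 6 were higher and 7 lower. Of 9 probes of mitochondrial protein quality 2 were higher and 7 lower. Of all probes 37.4% were higher and 37.6% lower. After place correction the list counts were 10 and 13, 5 and 7, and 1 and 5, beside 37.0% and 36.9% of all probes. The lists overlap in Hyou1, Grpel1 and Trap1. The exchange factors of Hspa9 went opposite ways: Grpel2 was higher at 0.29 ± 0.04, and Grpel1, at an every 8th place, was lower at -0.84 ± 0.12, or -0.27 after place correction (limma adjusted p = 0.0063). Subunits of prefoldin, which delivers clients to the chaperonin, went different ways. Pfdn5 was lower at -1.14 ± 0.08 and Pfdn1 at -0.29, whereas Pfdn4 was higher at 0.33 and Pfdn2 at 0.18. Vbp1 at 0.13 and Pfdn6 at 0.07 did not pass, and Pfdn6, at an every 8th place, was higher at 0.65 after correction. The matrix protease Lonp1 was higher at 0.30 ± 0.05. The matrix HSP90 Trap1, at an every 8th place, was lower at -1.76, or -1.19 after correction.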

How the data were processed

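Per the submitters' processing notes the authors deposited log ratios normalized with limma in R 2.0.0, read here as log2 values. Sources used here state neither log base nor direction. The labels put strain RNA in the red dye and the reference in the green one. Because limma forms red over green, strain over reference is likely. The lowest r of any 2 arrays was -0.04, a value that would be the same if all ratios were reversed. Sorted values differed between arrays by at most 0.000256. Signal over background is unknown without intensities, and precision rests on the number of arrays. Of 23040 features 1275 were empty. Names came from the platform annotation, updated by gene ID through RefSeq (15964 of 16642 probes with 1 gene matched, 134 had several genes and 4989 none).

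Panel means were tested with limma 3.58.1, R 4.3.3 (intercept, lmFit, eBayes, two-sided, adjusted p under 0.05 over all probes). C57BL/6J RNA entered as 1 pool, whose own spread the test omits, and p-values measure the spread between strains, each with 1 array. Permutation tests used Python 3.11.15 and NumPy 2.4.6. Genes were named by a rule: the main chaperones, means of 0.5 or more in size past the threshold, the 3 largest SDs per role, and genes with several probes. Others were chosen after their values were seen. Members, lists and pairs were chosen with earlier results of these data known. Tests were tried on simulated data. Alternatives were leaving out arrays, place correction, centring, a robust fit, a threshold of 0.2, probe filters and other correlation measures. All arrays had the same median, -0.0015, so centring moved every value by the same small amount and could hardly change a call. The pair Hsp90b1 and Canx, the ER stress and marker correlations and single strains left out were added after seeing the data.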

Additional observations from a re-analysis of the deposited data

How the results depend on the processing

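Asking for a mean beyond 0.2 left 31 members (9 higher, 22 lower) and 7229 of all probes. Leaving out every 8th probes left 21 lower, and keeping only SDs above the median left 32 (14 higher, 18 lower), both with fewer members tested. Place correction turned the sign of Hspa8 probe 17848 (0.14) and Dnaja1 (0.13), and without strains 23, 28, 40 and 42 as well 0.17 and 0.22, and Dnajc24 (0.0044). Without those strains Dnajc28 was 0.067 (limma adjusted p = 0.042). These were the 6 sign changes of panel means that passed under at least 1 of the 2 settings, for probes named by the rule. The counts that follow are comparisons, 1 for each of the 52 named probes or 30 probe pairs under each alternative setting. Of the other panel mean comparisons 259 kept sign and side of the threshold, 27 lost and 8 gained significance, and 12 changed sign while passing under neither setting. Centring was among these settings, and it could hardly change a call. Of the correlation comparisons 121 kept both, 8 lost and 6 gained significance, and 15 changed sign while passing under neither setting. No paired analysis was possible because all samples form 1 group. Depth is not known for arrays, and dim probes could not be told from flat ones.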
